A study of Caenorhabditis elegans with 33 samples.

Results

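The fatty acid desaturase genes of Caenorhabditis elegans, fat-1 to fat-7, were followed through an mRNA-seq series of L3 larvae. They were found in the expression table by their WormBase symbols and are 7 of its 21975 genes. All 7 had a mean of at least 1 FPKM (fragments per kilobase of transcript, scaled to library size) over the libraries, and so were among the 13309 genes tested. Poly(A) RNA from whole larvae was sequenced in 33 libraries, 3 for each of 11 conditions in 7 strains. The study asked whether the dosage compensation machinery of the X chromosome is still needed after embryogenesis, and no desaturase gene lies on the X.

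A set of 4 strains was sequenced both on 4 mM auxin and without it. TIR-1; dpy-27::AID; cec-4 carries the plant F-box protein TIR1 fused to mRuby under the eft-3 promoter (ieSi57), a degron-tagged dpy-27 (xoe41) and the cec-4 allele ok3124. TIR-1; dpy-27::AID lacks the cec-4 allele, dpy-27::AID has the degron without TIR1, and cec-4 has ok3124 alone. Without auxin only, the series holds dpy-21; cec-4 (e428 with ok3124), dpy-21 (e428) and WT (Bristol N2). DPY-27 is a subunit of condensin IDC, the X-specific condensin, DPY-21 is a histone H4 lysine demethylase, and CEC-4 anchors methylated chromatin at the nuclear periphery. Synchronized L1 larvae of every group were grown for 24 h at 20 C on the same food. The dpy-21 and cec-4 alleles had been backcrossed to N2. TIR1 acts from a broadly active promoter, so depletion was not limited to a tissue that uses a given desaturase, and each genotype was 1 strain, so genotype and strain background cannot be told apart. The labels do not say that replicates came from separate cultures, so the p-values measure the spread between these libraries, which may be technical. In whole larvae, fewer cells of a type and less RNA per cell cannot be told apart.

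Total FPKM per library lay between 1.41 and 1.67 M (M for mega) outside WT and in WT replicate 3, whereas WT replicate 1 had 2.55 M and WT replicate 2 had 2.02 M. Judged by the smallest steps between low values, a library held about 13 to 25 M fragments, an estimate, since the quantification assigns fractions of fragments. Of the 5592 genes with a median of at least 20 FPKM, 188 were listed at 0 in some library, so a 0 may be a failed estimate. The gene cec-4 was listed at 0 in 11 of the 15 libraries of strains carrying ok3124, with up to 8.99 FPKM in the others, and in 2 of the 18 libraries of the other strains. Untreated TIR-1; dpy-27::AID; cec-4 had 3.46, 8.99 and 0 FPKM, against 7.03, 3.07 and 3.56 FPKM in untreated TIR-1; dpy-27::AID, so cec-4 did not separate these labels. Whether the fragments come from outside the deletion was not tested. For dpy-27 and dpy-21 the transcript level is no check, because the degron acts on the protein and e428 need not change the mRNA. The intestine is the main site of fatty acid synthesis in the worm, and its markers were well measured. The gut factor elt-2 had 19.5 to 60.8 FPKM, vha-6 had 178 to 490.4 FPKM and act-5 had 1049 to 2622 FPKM, while ifb-2 was listed at 0 in 31 of the 33 libraries.

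Desaturases put double bonds into fatty acids at fixed positions, using electrons passed on by cytochrome b5. In C. elegans FAT-5, FAT-6 and FAT-7 are delta-9 desaturases, which make monounsaturated from saturated fatty acids, FAT-5 mainly from palmitic acid and FAT-6 and FAT-7 mainly from stearic acid. FAT-2 then turns oleic into linoleic acid, FAT-1 makes omega-3 from omega-6 fatty acids, and FAT-3 and FAT-4 work with elongases toward arachidonic and eicosapentaenoic acid, so that the worm, unlike a mammal, makes its polyunsaturated fatty acids itself.

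On WBcel235, fat-1 (WBGene00001393) lies on chromosome IV at 13315644 to 13318811 and fat-2 (WBGene00001394) at 13323873 to 13326395, both on the plus strand. The gap between them is 5061 bases and holds 1 non-coding gene. The pair fat-4 (WBGene00001396; chromosome IV, 9799429 to 9802226) and fat-3 (WBGene00001395; 9803023 to 9806119) is closer still, on the plus strand with 796 bases and no gene between them. The gene fat-6 (WBGene00001398) lies on the minus strand of chromosome IV at 11913692 to 11915687. On chromosome V, fat-7 (WBGene00001399) lies on the minus strand at 7151353 to 7153146 and fat-5 (WBGene00001397) on the plus strand at 17725004 to 17726818. The sequences of fat-6 and fat-7 are close copies, so the split of fragments between them is uncertain. Inside fat-5 the annotation also has twk-42 and the non-coding W06D12.8 on the other strand. The library kit keeps strand, but whether strand was used in quantification is not given in the sources used here.

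Levels spanned 2 orders of magnitude across the family. Averaged over the 33 libraries, fat-2 was highest at 835 FPKM and ranked 260 among all genes of the table. Below it were fat-6 at 476 FPKM, fat-1 at 394 FPKM, fat-4 at 294 FPKM and fat-3 at 200.4 FPKM. The delta-9 genes fat-5 and fat-7 were far lower, at 23.8 and 6.79 FPKM. The transcript of FAT-2, the enzyme at the entry to the polyunsaturated branch, was the most abundant per length, with 31.6% to 47.3% of the summed FPKM of the 7 genes in each library.

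**Figure D1:**
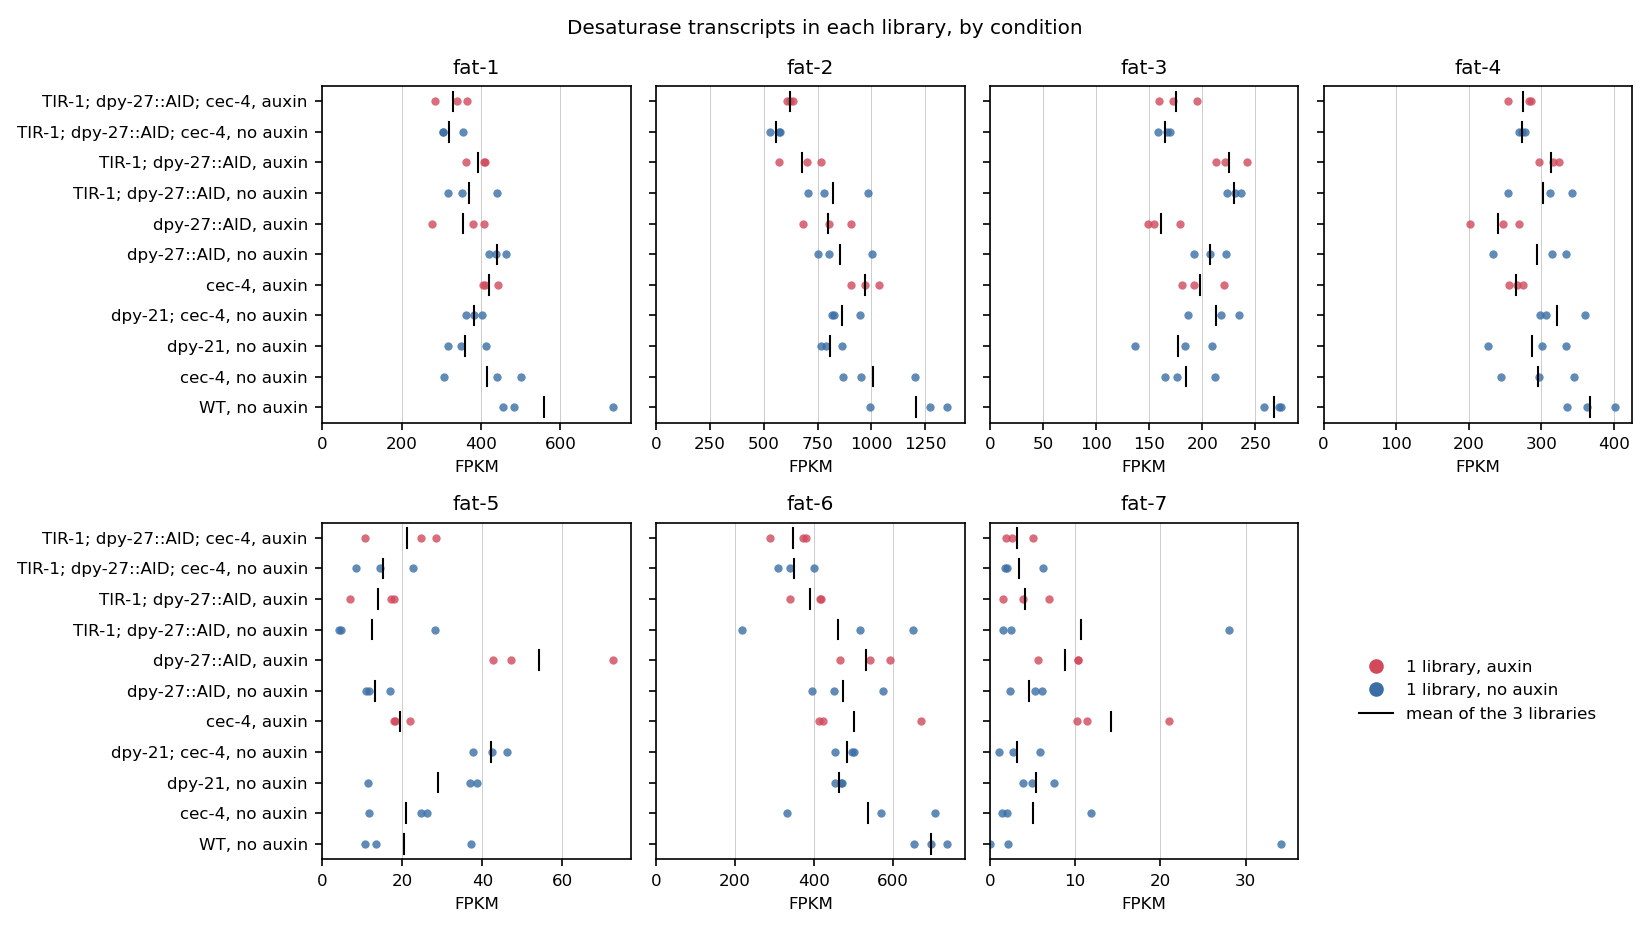
FPKM as deposited (horizontal axis, linear, from 0) of the 7 desaturase genes in each library, by condition (vertical axis, WT at the bottom). Each point is 1 library, red with auxin and blue without, and each bar is the mean of 3 libraries, left out where a library was listed at 0. The WT libraries of fat-3 (258 to 274 FPKM) lie above all 30 other libraries, and the auxin-treated dpy-27::AID libraries of fat-5 (42.7 to 72.8 FPKM) lie above the untreated ones (10.8 to 16.8 FPKM).

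Among the delta-9 genes, fat-6 supplied 85.6% to 98.8% of the summed FPKM of fat-5, fat-6 and fat-7 in a library, with a median share of 94.5%. Its level was 347 ± 49.9 FPKM in auxin-treated TIR-1; dpy-27::AID; cec-4 (SD, n = 3 for every mean here) and 349.5 ± 47.2 FPKM without auxin, and 391 ± 44.3 FPKM in auxin-treated TIR-1; dpy-27::AID. Those were the lowest 3 of the 11 condition means, and the highest was 696 ± 42.1 FPKM in WT. The replicates of untreated TIR-1; dpy-27::AID were the least alike, with 217, 517 and 651 FPKM.

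The gene fat-5 was highest in auxin-treated dpy-27::AID, at 54.2 ± 16.3 FPKM, and in dpy-21; cec-4, at 42.1 ± 4.22 FPKM. In the other 9 conditions its mean was between 12.3 and 29.0 FPKM. The spread within a condition could be wide: untreated TIR-1; dpy-27::AID had 4.75, 4.06 and 28.1 FPKM.

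The gene fat-7 was low nearly everywhere, with an estimated median of 76.0 fragments a library and estimates from 0 to 471. WT held both ends of the FPKM range of fat-7, listed at 0 in replicate 1, with 2.10 FPKM in replicate 2 and 34.1 FPKM in replicate 3. The last of these had an estimated 466 fragments, so low counts alone do not describe the spread. Untreated TIR-1; dpy-27::AID had 1.49, 2.48 and 28.1 FPKM. Auxin-treated cec-4 had 21.02, 10.2 and 11.4 FPKM, the only condition with all 3 libraries above 10 FPKM. After condition means were removed, its residual SD on the log2 scale was 1.66, against a median of 0.60 over all genes tested.

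Transcripts of the polyunsaturated branch were steadier. The residual SD was 0.22 for fat-1, 0.18 for fat-2, 0.15 for fat-3 and 0.18 for fat-4, compared with a median of 0.30 over the 1706 genes with a mean of at least 100 FPKM. The delta-9 gene fat-6, at a like level, had 0.36, and fat-5 had 0.78.

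In the deposited values, the polyunsaturated genes and fat-6 shared the condition at the top of their order. WT had the highest mean of the 11 conditions for fat-1, fat-2, fat-3, fat-4 and fat-6, that is 5 of 7 members. For fat-3 the WT values of 272, 258 and 274 FPKM lay above all 30 other libraries, which ran up to 242.5 FPKM. For fat-1, fat-2, fat-4 and fat-6, only 2, 3, 3 and 2 of those 30 libraries exceeded the lowest WT library. In the deposited order of condition means most neighbours overlapped in their libraries: 9 of 10 neighbouring pairs for fat-2 and fat-3 and all 10 for each other gene. The exceptions were WT over TIR-1; dpy-27::AID for fat-3, and auxin-treated over untreated TIR-1; dpy-27::AID; cec-4 for fat-2, at the low end of the order.

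Conditions were compared with limma on log2(FPKM + 0.1) in 1 fit over all 33 libraries, with Benjamini-Hochberg adjustment over the 13309 genes in each comparison and a threshold of 0.05. Intervals are 95% intervals of a single difference, not adjusted. A moderated F test for any difference among the 11 conditions passed for fat-2 (adjusted p = 0.00122) and fat-3 (adjusted p = 0.00661), 2 of the 7 members, against 10.2% of all genes tested. The other adjusted p-values were 0.0700 for fat-5, 0.0958 for fat-1, 0.215 for fat-6, 0.216 for fat-4 and 0.786 for fat-7. With libraries scaled to equal FPKM sums, fat-3 no longer passed (adjusted p = 0.138) and fat-2 did (adjusted p = 0.0310). With the replicate number as a block, fat-5 also passed (adjusted p = 0.0490).

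The largest set of differences was between untreated TIR-1; dpy-27::AID; cec-4 and WT, a comparison that asks what tag, TIR1 and cec-4 allele do before auxin is given. In the deposited values the transcripts of fat-1, fat-2 and fat-3 fell, 3 of 7 members. Of all genes, 1.73% were called in either direction and 0.691% lower. Fatty acids and enzyme activity were not measured. The linoleic acid enzyme gene fat-2 had 529, 574 and 571 FPKM in TIR-1; dpy-27::AID; cec-4, against 1273, 995 and 1352 FPKM in WT. The groups did not overlap, and the highest library of the strain was far below the lowest WT one. The log2 fold change was -1.1 (SE 0.15, a fold of 0.466), with an adjusted p of 0.000258 in limma and a range of 0.000242 to 0.0942 over the 11 other settings.

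The omega-3 desaturase gene fat-1 had 303, 354 and 303 FPKM in TIR-1; dpy-27::AID; cec-4, against 734, 484 and 455 FPKM in WT. The groups did not overlap, and WT replicate 1 stood well above the other WT libraries. The log2 fold change was -0.77 (SE 0.18), with an adjusted p of 0.0283 in limma and 0.0254 to 0.327 over the other settings. Without WT replicate 1 it was -0.56 and was no longer called (adjusted p = 0.200). The call was also lost when replicate 1, 2 or 3 of the mutant was left out, with adjusted p-values of 0.121, 0.0646 and 0.0864.

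The gene fat-3, whose enzyme acts after FAT-2, had 159, 170 and 167 FPKM in TIR-1; dpy-27::AID; cec-4, against 272, 258 and 274 FPKM in WT. As deposited, both groups were tight and far apart. The log2 fold change was -0.70 (SE 0.13), with an adjusted p of 0.00828 in limma and 0.00643 to 0.267 over the other settings. Leaving out replicate 1 of the mutant moved it to an adjusted p of 0.0556.

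With the library labelled TIR-1; dpy-27::AID; cec-4 replicate 3, the one with cec-4 listed at 0, as the only library of its group (an alternative chosen after seeing the data), the log2 fold changes were -1.07 for fat-2, -0.85 for fat-1 and -0.68 for fat-3. None of the 3 was called there (adjusted p = 0.0827, 0.321 and 0.267), and the lone library is assumed to vary like the other groups.

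Both remaining abundant members lay lower without passing the test. The main delta-9 gene fat-6 had 309, 339 and 401 FPKM in TIR-1; dpy-27::AID; cec-4, against 697, 738 and 654 FPKM in WT, a log2 fold change of -1.0 (interval -1.58 to -0.42, adjusted p = 0.0590). It was called only without WT replicate 3 (adjusted p = 0.0356). For fat-4 the values were 273, 278 and 269 FPKM, against 401, 363 and 335 FPKM in WT, a log2 fold change of -0.42 (interval -0.74 to -0.10, adjusted p = 0.143). In all, 5 of 7 members had lower deposited values without overlap, where 7.63% of all genes did. That share covers genes of all levels, and the share among genes as abundant as these 5 was not taken. The median log2 fold change of the 7 members was -0.70, and that of all genes was 0.09.

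In larvae with the dpy-21 allele e428, fat-2 and fat-3 fell relative to WT, 2 of 7 members, where 3.66% of all genes were called in either direction and 1.28% of all genes lower. The gene fat-3 had 209, 137 and 184 FPKM in dpy-21, against 272, 258 and 274 FPKM in WT, a log2 fold change of -0.62 (SE 0.13, adjusted p = 0.0119, and 0.00920 to 0.286 over the other settings). The gene fat-2 had 862, 789 and 767 FPKM in dpy-21, against 1273, 995 and 1352 FPKM in WT, a log2 fold change of -0.57 (SE 0.15, adjusted p = 0.0376, and 0.0298 to 0.460 over the other settings). Neither gene overlapped between the groups.

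Both dpy-21 calls sat near the threshold. The fat-3 call was lost without dpy-21 replicate 2, the lowest library (adjusted p = 0.103). The fat-2 call remained in 1 of the 6 fits that left out a library, the one without WT replicate 2. In the others its adjusted p was 0.135 without WT replicate 1, 0.0549 without WT replicate 3, and 0.0627, 0.128 and 0.113 without dpy-21 replicates 1, 2 and 3. The omega-3 gene fat-1 had 349, 316 and 413 FPKM in dpy-21, against 734, 484 and 455 FPKM in WT, without overlap (log2 fold change -0.61, interval -0.98 to -0.24, adjusted p = 0.0576). With fat-4 and fat-6, 5 of 7 members had lower deposited values without overlap, against 7.51% of all genes, and the median over members was -0.57, against 0.09 over all genes. Here too the shares of all genes cover genes of all levels.

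**Figure D2:**
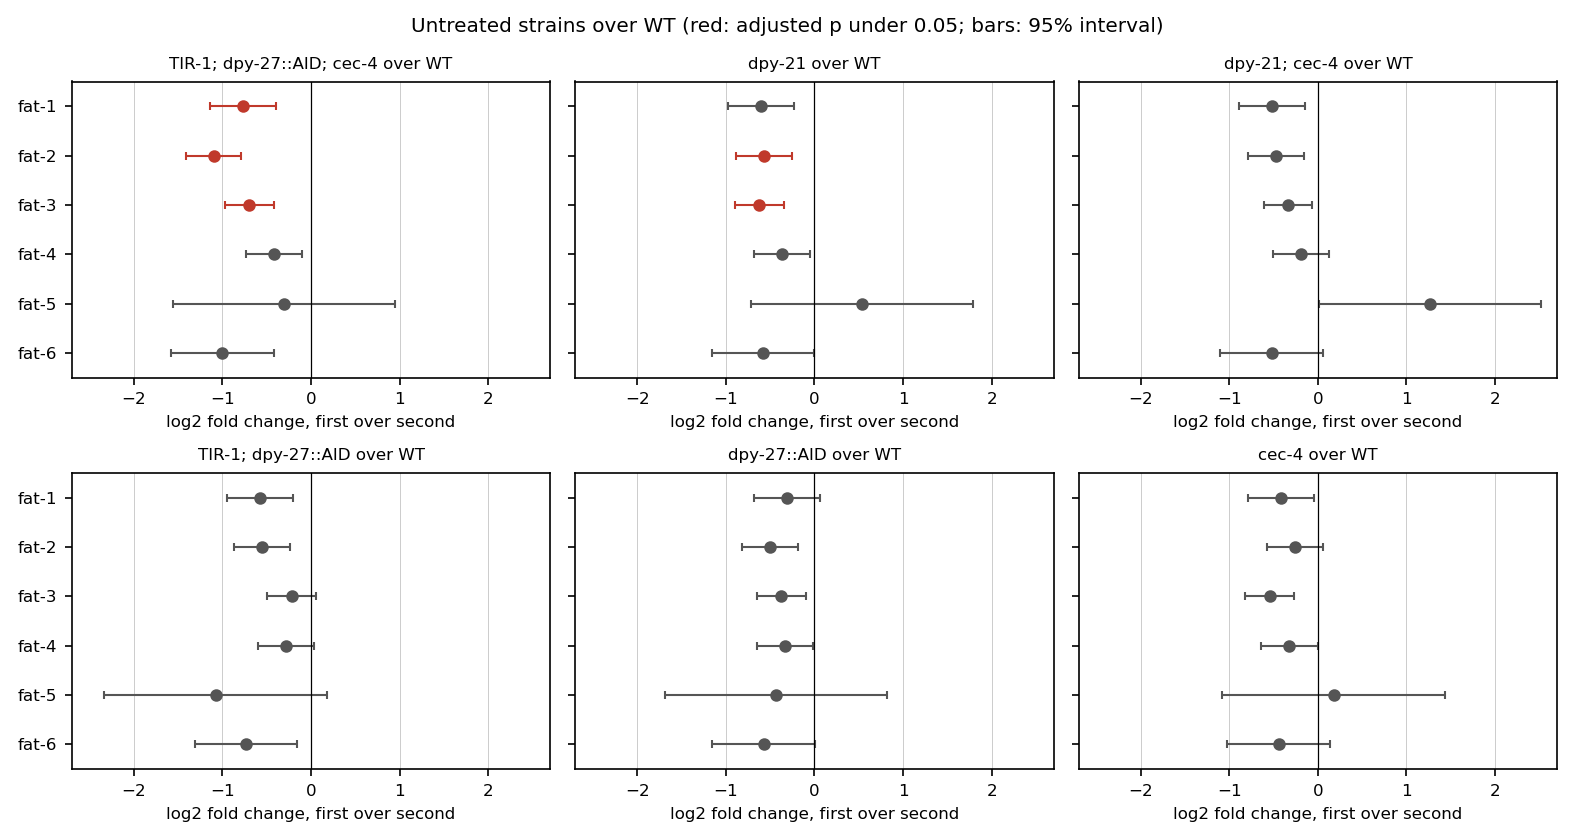
Log2 fold change (horizontal axis) of 6 desaturase genes (vertical axis) in untreated strains over WT, from limma on log2(FPKM + 0.1). Points are estimates, bars are 95% intervals, and red marks an adjusted p under 0.05. The 5 red points are fat-1, fat-2 and fat-3 in TIR-1; dpy-27::AID; cec-4 and fat-2 and fat-3 in dpy-21. All 6 panels share the 3 WT libraries, and fat-7 is left out because a WT library was listed at 0.

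No member was called in the other 4 strains set against the same 3 WT libraries. The shares of all genes called were 4.3% in dpy-21; cec-4, 0.293% in TIR-1; dpy-27::AID, 0.586% in dpy-27::AID and 0.195% in cec-4. At an unadjusted p under 0.05, dpy-21; cec-4 had 3 members lower and 1 higher, where 20.1% of all genes passed. The 3 members lower at that level in TIR-1; dpy-27::AID compare with 14.2% of all genes, the 3 in dpy-27::AID with 19.1%, and the 3 in cec-4 with 16.5%.

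The smallest adjusted p of any member was 0.0736 in dpy-21; cec-4 (fat-2, log2 fold change -0.47, interval -0.79 to -0.16). It was 0.114 in TIR-1; dpy-27::AID (fat-2, -0.55, interval -0.87 to -0.24), 0.0832 in dpy-27::AID (fat-2, -0.50, interval -0.81 to -0.19) and 0.0861 in cec-4 (fat-3, -0.55, interval -0.82 to -0.27). A single library decided some of these. Without WT replicate 2, fat-2 was called in dpy-21; cec-4 (adjusted p = 0.0430) and in TIR-1; dpy-27::AID (adjusted p = 0.0432). Without WT replicate 3, fat-1 was called in dpy-21; cec-4 (adjusted p = 0.0314) and in TIR-1; dpy-27::AID (adjusted p = 0.0297), and fat-3 in cec-4 (adjusted p = 0.0260). Leaving out replicate 3 of the strain itself brought fat-2 under the threshold in dpy-27::AID (adjusted p = 0.0270) and in TIR-1; dpy-27::AID (adjusted p = 0.0444).

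The genes fat-2 and fat-3 were also lower in TIR-1; dpy-27::AID; cec-4 than in TIR-1; dpy-27::AID, both untreated, but not past the threshold. The fat-2 values were 529, 574 and 571 FPKM, against 780.5, 707 and 985 FPKM in TIR-1; dpy-27::AID, and did not overlap (log2 fold change -0.55, interval -0.86 to -0.24, adjusted p = 0.182). For fat-3 they were 159, 170 and 167 FPKM, against 230.5, 224 and 236 FPKM (log2 fold change -0.48, interval -0.75 to -0.20, adjusted p = 0.186). In that comparison 0.0827% of all genes were called and no member, and these 2 of 7 members had an unadjusted p under 0.05, where 8.66% of all genes did.

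The WT libraries were the ones whose FPKM sums stood apart, so the same values were read on a second scale. The deposited values already had equal medians of ratios, with a factor of 1.02 in every library. Scaling to equal FPKM sums divided WT replicate 1 by 1.62 and replicate 2 by 1.28, and moved the median log2 fold change of all genes to 0.42 in TIR-1; dpy-27::AID; cec-4 over WT and to 0.39 in dpy-21 over WT, against 0.09 in each as deposited.

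On that scale fat-2 still passed in TIR-1; dpy-27::AID; cec-4, with 546, 581 and 598 FPKM, against 787, 778 and 1487 FPKM in WT (log2 fold change -0.75, adjusted p = 0.0288). The difference for fat-1 was -0.42 (adjusted p = 0.0747) and for fat-3 -0.35 (adjusted p = 0.206), and WT replicate 1, at 168 FPKM, fell among the mutant libraries for fat-3. In dpy-21, fat-2 (-0.25, adjusted p = 0.460) and fat-3 (-0.30, adjusted p = 0.286) were not called. Less the median of all genes, which such a scaling shifts with every gene by construction, fat-2 was -1.19 and fat-3 -0.79 for TIR-1; dpy-27::AID; cec-4 over WT, and fat-3 was -0.71 for dpy-21 over WT, all as deposited.

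**Figure D3:**
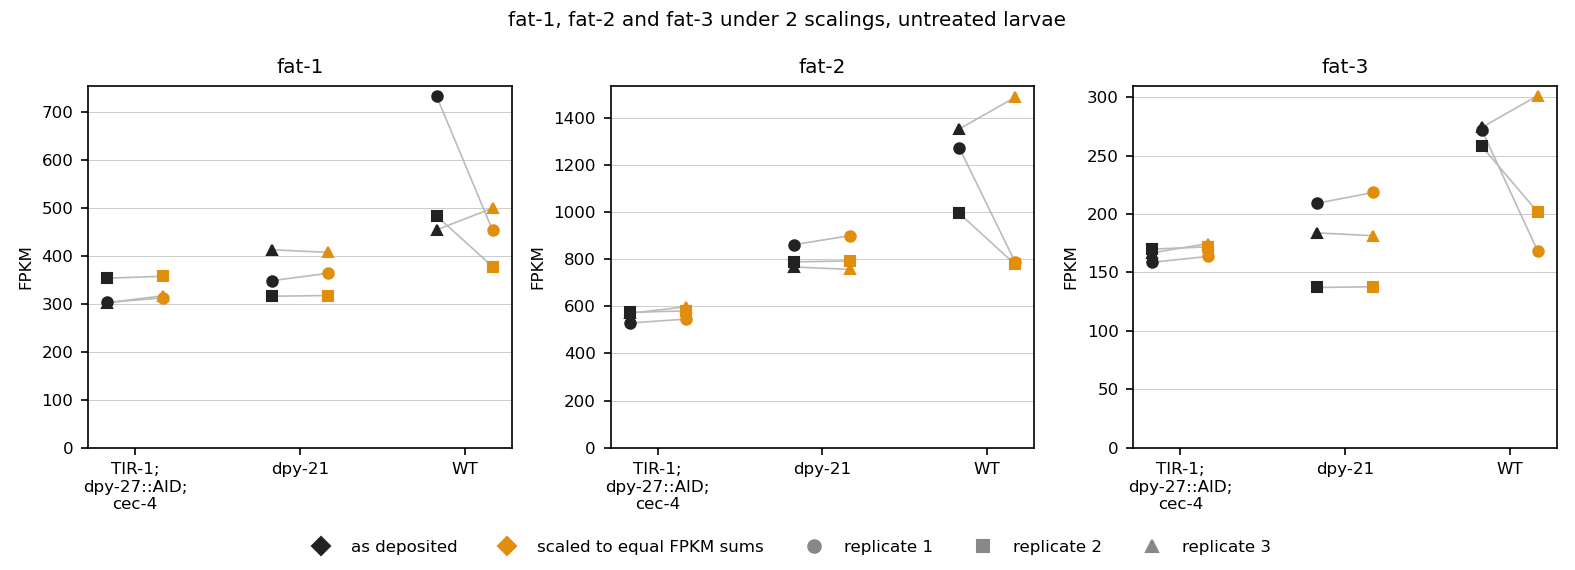
FPKM (vertical axes, linear, from 0) of fat-1, fat-2 and fat-3 in untreated TIR-1; dpy-27::AID; cec-4, dpy-21 and WT. Black marks are the deposited values and orange marks the same libraries scaled to equal FPKM sums, joined by a line, with a marker shape for each replicate. WT replicate 3 of fat-2 lies at 1352 FPKM as deposited and 1487 FPKM scaled, while WT replicates 1 and 2 lie at 787 and 778 FPKM once scaled.

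With WT replicate 3, whose FPKM sum of 1.44 M was ordinary, as the only WT library (an alternative chosen after seeing the data), fat-2 was called lower in TIR-1; dpy-27::AID; cec-4 (log2 fold change -1.28, adjusted p = 0.000604). The values there were -0.73 for fat-3 (adjusted p = 0.0550) and -0.51 for fat-1 (adjusted p = 0.327). In dpy-21 they were -0.75 for fat-2 (adjusted p = 0.0507) and -0.65 for fat-3 (adjusted p = 0.0746). In this fit the lone WT library is assumed to vary like the other groups. Its FPKM sum was ordinary, but some of its markers were not. Its molting score, defined below, was -1.86, the lowest of the 33 libraries. The summed level of 4 germline genes was 44.2 FPKM, also the lowest, and the next library had 74.7 FPKM. It held the highest fat-7 value as well, 34.1 FPKM. Its intestinal score of 0.13 lay within the range of the other libraries. The part of these marker levels in the fit was not tested.

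Stage markers differed between the same groups. The molting list held 7 tested genes of 9, with mlt-11 and bli-1 below the filter, and its score, the mean log2 value of its genes centred over the libraries, was 0.43 to 0.96 in TIR-1; dpy-27::AID; cec-4 and -0.20 to 0.42 in dpy-21, against -1.86 to -1.13 in WT. Its summed level was 927 to 1201 FPKM, 592 to 833 FPKM and 414 to 511 FPKM in that order of groups. Of the 7 genes, 1 rose in each strain, nas-37, a protease of cuticle shedding. The epidermal score was 0.28 to 0.42 and -0.57 to -0.07, against -1.08 to -0.47 in WT, with no gene of 7 called. The neuronal score was 0.11 to 0.25 and -0.86 to 0.07, against 0.33 to 0.41 in WT, with no gene of 5 called. Intestinal scores overlapped, at -0.07 to 0.12 and -0.23 to 0.33, against -0.04 to 0.13 in WT, with no gene of 10 called in either comparison. Their summed FPKM as deposited was 7394 to 9522 and 6397 to 7549, against 8105 to 10650.0 in WT, and so was lower without overlap in dpy-21. Scaling to equal FPKM sums divides WT replicates 1 and 2 by 1.62 and 1.28, and the dpy-21 and WT sums then overlap. The part of these differences in the desaturase results was not tested. In TIR-1; dpy-27::AID; cec-4 on auxin, the molting score was -1.82 to -0.98.

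Auxin with TIR1 is meant to deplete DPY-27, and no desaturase gene passed the test of auxin in either strain with TIR1. In TIR-1; dpy-27::AID none of 7 members was called on auxin over no auxin, where 0.413% of all genes were, and none had an unadjusted p under 0.05, where 11.6% of all genes did. The gene fat-2 had 569, 702 and 768 FPKM on auxin, against 780.5, 707 and 985 FPKM without it (log2 fold change -0.27, interval -0.59 to 0.04). For fat-1, fat-3 and fat-4 the intervals lay within -0.31 and 0.48, and for fat-6 the interval was -0.68 to 0.48. For fat-5 it was -0.62 to 1.89 and for fat-7 -3.12 to 2.22. Intervals of this width do not show that the levels were alike.

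With the cec-4 allele added, in TIR-1; dpy-27::AID; cec-4, 6.4% of all genes were called on auxin over no auxin and none of the 7 members, and none had an unadjusted p under 0.05, where 21.1% of all genes did. The fat-2 values were 610.1, 634 and 622 FPKM on auxin, against 529, 574 and 571 FPKM without it, without overlap but with a small difference (log2 fold change 0.16, interval -0.16 to 0.47, adjusted p = 0.618). For fat-1, fat-3 and fat-4 the log2 fold changes were 0.04, 0.08 and 0.00, with intervals within -0.34 and 0.41. The median over members was 0.04, against -0.05 over all genes.

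Differences between strains in the auxin response were tested as interactions. There none of 7 members was called for TIR-1; dpy-27::AID; cec-4 minus TIR-1; dpy-27::AID (1.44% of all genes), for TIR-1; dpy-27::AID minus dpy-27::AID (0.00751%) or for TIR-1; dpy-27::AID; cec-4 minus cec-4 (0.691%). None had an unadjusted p under 0.05 in these, where 15.5%, 8.58% and 14.2% of all genes did in the same order. For fat-2 the first of these was 0.43 on the log2 scale (interval -0.01 to 0.88, adjusted p = 0.337).

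Auxin without TIR1 tests the agent itself. In dpy-27::AID, where 0% of the 13309 genes were called by limma and 5.06% had an unadjusted p under 0.05, 1 member was higher and 1 lower at that level. The gene fat-5, the palmitic acid desaturase, had 42.7, 47.1 and 72.8 FPKM on auxin, against 16.8, 10.8 and 11.6 FPKM without it. All auxin libraries lay above all untreated ones, a fold of 4.08 (log2 fold change 2.03, interval 0.77 to 3.28, unadjusted p of 0.00269 in limma), yet the adjusted p was 0.889, with a range of 0.533 to 1 over the other settings. The gene fat-3 had 179, 149 and 155 FPKM on auxin, against 192, 207 and 222 FPKM (log2 fold change -0.36, adjusted p = 0.942). In cec-4 larvae the fat-5 values were 18.2, 22 and 17.8 FPKM on auxin, against 11.7, 24.7 and 26.3 FPKM without it, and overlapped. None of the 7 members was called in cec-4, where 0.00751% of all genes were, and none had an unadjusted p under 0.05, where 4.3% of all genes did.

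On auxin, TIR-1; dpy-27::AID was also set against dpy-27::AID, which asks what depletion does when both groups are exposed. No member was called, where 1.31% of all genes were, and 3 of 7 had an unadjusted p under 0.05 (2 higher, 1 lower), where 12.5% of all genes did. The gene fat-3 had 221, 213 and 242.5 FPKM in TIR-1; dpy-27::AID, against 179, 149 and 155 FPKM in dpy-27::AID, without overlap (log2 fold change 0.49, interval 0.21 to 0.76, adjusted p = 0.0699, and 0.0537 to 0.196 over the other settings). Its neighbour fat-4 had 297, 325 and 316 FPKM, against 269.7, 248 and 202 FPKM (log2 fold change 0.39, interval 0.07 to 0.71, adjusted p = 0.252). The gene fat-5 ran the other way, with 6.79, 17.9 and 17.1 FPKM, against 42.7, 47.1 and 72.8 FPKM (log2 fold change -2.04, interval -3.29 to -0.78, adjusted p = 0.0991). The auxin-treated dpy-27::AID libraries enter both of the fat-5 comparisons, so these are not independent.

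**Figure D4:**
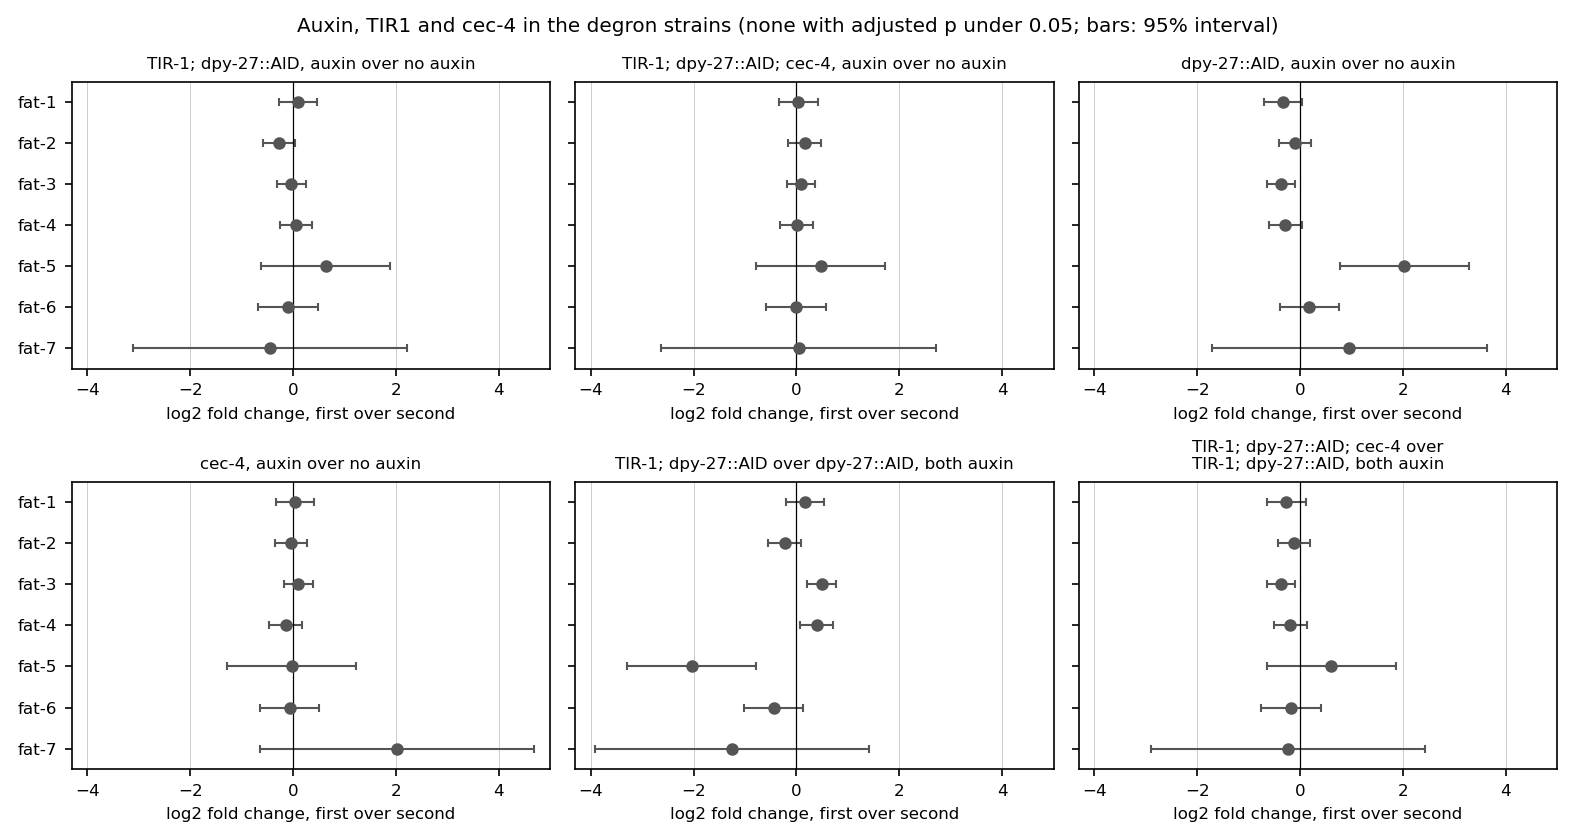
Log2 fold change (horizontal axis) of the 7 desaturase genes (vertical axis) for auxin over no auxin in 4 strains and, on auxin, for TIR-1; dpy-27::AID over dpy-27::AID and for TIR-1; dpy-27::AID; cec-4 over TIR-1; dpy-27::AID. Points are limma estimates and bars are 95% intervals. No point has an adjusted p under 0.05, and fat-5 in dpy-27::AID (2.03) and on auxin with TIR1 (-2.04) lie farthest from 0 among points whose intervals leave it out.

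Before auxin, TIR-1; dpy-27::AID and dpy-27::AID were called different in none of the 7 members (0.0376% of all genes called, and no member with an unadjusted p under 0.05, against 13.3% of all genes). Adding the cec-4 allele to depleted larvae, both on auxin, gave no call among the 7 members (2.28% of all genes called). There fat-3 had 195, 159 and 173 FPKM in TIR-1; dpy-27::AID; cec-4, against 221, 213 and 242.5 FPKM in TIR-1; dpy-27::AID (log2 fold change -0.36, interval -0.64 to -0.09, adjusted p = 0.162), the 1 member with an unadjusted p under 0.05, where 16% of all genes had one.

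Loss of both dpy-21 and cec-4 was set against each single mutant. In dpy-21; cec-4 against cec-4 no member was called (1.56% of all genes were) and none had an unadjusted p under 0.05 (14.1% of all genes). The largest difference was in fat-5, with 37.8, 42.4 and 46.2 FPKM in dpy-21; cec-4, against 11.7, 24.7 and 26.3 FPKM in cec-4, without overlap (log2 fold change 1.09, interval -0.17 to 2.35, adjusted p = 0.444). In dpy-21; cec-4 against dpy-21 0% of the 13309 genes were called by limma, 3.9% of all genes had an unadjusted p under 0.05, and fat-3 was the 1 member that did, with 234, 218 and 187 FPKM, against 209, 137 and 184 FPKM in dpy-21 (log2 fold change 0.28, interval 0.01 to 0.56). The effect of cec-4 in dpy-21 minus its effect in WT was called for none of 7 members (0.0526% of all genes), and 2 of 7, fat-3 and fat-4, had an unadjusted p under 0.05, where 12.2% of all genes did. The difference of effects was 0.83 for fat-3 (interval 0.44 to 1.22, adjusted p = 0.103), which was called without WT replicate 3 (adjusted p = 0.0305) or without dpy-21 replicate 1 (adjusted p = 0.0427).

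Several members moved together over the 33 libraries. Of the 21 pairs, 7 had a Pearson correlation of log2(FPKM + 0.1) that passed (100000 permutations, two-sided, adjusted over the 21 pairs). The neighbours fat-3 and fat-4 had r = 0.74 (Spearman's rho = 0.71, adjusted permutation p = 0.000105 and 0.00021), and r = 0.70 without the 2 libraries farthest from the median of fat-3. The genes fat-1 and fat-6, which are not neighbours, had r = 0.71 (rho = 0.70, adjusted permutation p = 0.000105 and 0.00021), and r = 0.77 without the 2 farthest libraries. The unadjusted p of r was 1e-05 in both, the smallest that 100000 permutations can give. Also past the threshold were fat-1 with fat-4 (r = 0.64, rho = 0.55, adjusted permutation p = 0.00028 and 0.00445), with fat-3 (r = 0.62, rho = 0.55, p = 0.000472 and 0.00458) and with fat-2 (r = 0.60, rho = 0.57, p = 0.00084 and 0.00409). Without the 2 farthest libraries these were 0.47, 0.52 and 0.61. The remaining pairs were fat-2 with fat-6 (r = 0.58, rho = 0.57, adjusted permutation p = 0.00108 and 0.00409, and r = 0.50 without the 2 farthest libraries) and fat-2 with fat-3 (r = 0.44, rho = 0.38, p = 0.0298 and 0.0675). The last was 0.26 without the 2 farthest libraries and so rested on them. Without the 3 WT libraries r was 0.65 for fat-3 with fat-4 and 0.66 for fat-1 with fat-6. It was 0.49, 0.48 and 0.46 for fat-1 with fat-4, fat-3 and fat-2. For fat-2 it was 0.47 with fat-6 and 0.21 with fat-3. The share of other gene pairs that pass the same test was not taken.

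The 33 libraries are 11 groups of 3, so the pairs were read again within conditions. On deviations from the condition means, with permutation within conditions, only fat-1 with fat-6 passed (r = 0.61, rho = 0.61, adjusted permutation p = 0.00504 and 0.0191), and with equal FPKM sums it did not (r = 0.54, adjusted permutation p = 0.0636). For fat-3 with fat-4 the within-condition r was 0.57 (adjusted permutation p = 0.0741) and for fat-1 with fat-4 it was 0.60 (adjusted permutation p = 0.0551). The neighbours fat-1 and fat-2, with r = 0.60 pooled, had 0.09 within conditions, and fat-1 with fat-3, fat-2 with fat-6 and fat-2 with fat-3 had 0.35, 0.03 and 0.05. No pair that included fat-5 or fat-7 passed in either version as reported. With equal FPKM sums some did over the 33 libraries: fat-5 with fat-7 (r = 0.47, adjusted permutation p = 0.0192), fat-6 with fat-7 (0.45, p = 0.0248), fat-2 with fat-7 (0.43, p = 0.0303) and fat-5 with fat-6 (0.43, p = 0.0303). None of these passed within conditions. With a pseudocount of 1, fat-5 with fat-7 also passed pooled (adjusted permutation p = 0.0443).

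**Figure D5:**
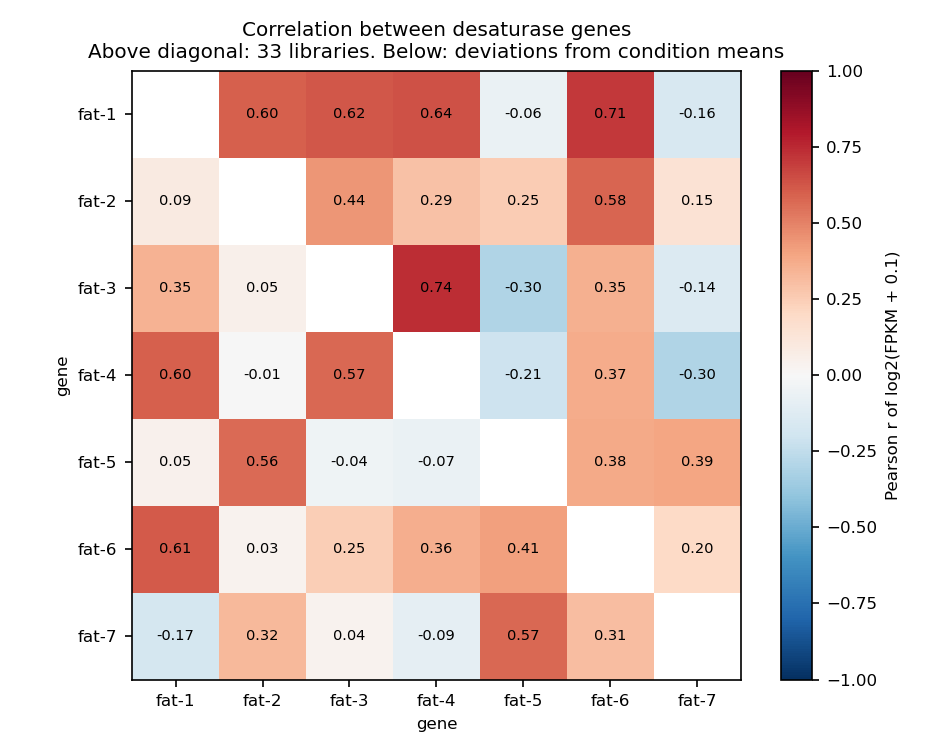
Pearson r of log2(FPKM + 0.1) for the 21 pairs of desaturase genes (genes on both axes, colour scale from -1 to 1). Cells above the diagonal use the 33 libraries and cells below it use deviations from the mean of each condition. The pair fat-1 and fat-6 has 0.71 above and 0.61 below, while fat-1 and fat-2 have 0.60 above and 0.09 below.

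The genes whose pattern was most like each member were read as a description from Pearson's r over the 33 libraries among all genes tested, which share library effects. For fat-1 they were inf-1 (0.85), elo-2 (0.85) and vig-1 (0.83), and for fat-2 they were dod-6 (0.74), gsp-2 (0.72) and elo-2 (0.69). For fat-3 they were dmd-9 (0.77), C46C2.2 (0.75) and its neighbour fat-4 (0.74), and for fat-4 they were T04C12.11 (0.77), hpo-19 (0.74) and fat-3 (0.74). For fat-6 they were gdh-1, mrps-21 and nduc-2 (0.79, 0.79 and 0.76), for fat-5 ZK84.1, oac-59 and hpd-1 (0.66, 0.65 and 0.65), and for fat-7 elc-1, smex-1 and unc-104 (0.78, 0.76 and 0.75).

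Enzymes that work beside the desaturases showed calls in the same comparisons. In untreated TIR-1; dpy-27::AID; cec-4 against WT, 3 of 11 tested genes of fatty acid synthesis and elongation fell and none rose, where 0.691% of all genes were called lower, with a median of -0.44 over the list against 0.09 over all genes. The elongase gene elo-2 had 265, 355 and 293 FPKM, against 905, 632 and 741 FPKM in WT (log2 fold change -1.31, adjusted p = 0.00287), elo-1 had a log2 fold change of -0.93 (adjusted p = 0.0215), and hpo-8 one of -0.87 (adjusted p = 0.0418). Among 6 electron donor and sphingolipid desaturase genes, hpo-19 (-0.77, adjusted p = 0.0189) and the cytochrome b5 gene cytb-5.2 (-0.63, adjusted p = 0.0492) fell, 2 of 6, against the same 0.691% of all genes. In dpy-21 against WT, elo-2 (-0.83, adjusted p = 0.0387) and cytb-5.2 (-0.58, adjusted p = 0.0493) fell, 1 of each list, where 1.28% of all genes were called lower. In dpy-21; cec-4 the same 2 genes fell (elo-2 -0.85, adjusted p = 0.0322, and cytb-5.2 -0.58, adjusted p = 0.0443), where 1.5% of all genes were called lower. These comparisons share the WT libraries, and the caution on their FPKM sums holds here too.

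Genes known to regulate desaturases gave no call. Of 14 listed, among them sbp-1 (the worm SREBP), nhr-49 and nhr-80 (nuclear receptors that act on fat-5, fat-6 and fat-7) and paqr-2 (a membrane fluidity sensor), 13 were tested, and none passed in any of the 16 comparisons or 4 interactions. The share of all genes called ran from 0% to 6.4% over these, so few calls among 13 genes could be looked for. Their median was 0.24 in TIR-1; dpy-27::AID; cec-4 over WT and 0.21 in dpy-21 over WT, against 0.09 over all genes in each. The co-regulator mdt-15 was below the filter.

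Fatty acid breakdown genes gave calls on auxin in 1 strain. In TIR-1; dpy-27::AID; cec-4 on auxin over no auxin, 4 of 12 tested genes of this list fell and none rose, where 3.33% of all genes were called lower, with a list median of -0.73 against -0.05 over all genes. The acyl-CoA synthetase gene acs-2 had a log2 fold change of -3.36 (adjusted p = 0.0130), ech-6 of -1.66 (adjusted p = 0.0130), the thiolase gene kat-1 of -0.94 (adjusted p = 0.0173) and the carnitine palmitoyltransferase gene cpt-2 of -0.77 (adjusted p = 0.0240). In the same comparison the molting genes noah-2, nas-37 and qua-1 fell, 3 of 7 tested, as did the collagen gene dpy-7, and the gut markers pept-1 and elt-2 rose while ges-1 fell. In this comparison genes of the X had a median log2 fold change of 0.67 and autosomal genes one of -0.13. The markers were not set against genes of their own chromosome, so their calls are no measure of tissue. The part of the marker changes in the breakdown result was not tested. In TIR-1; dpy-27::AID on auxin over no auxin none of the 12 was called, with a list median of 0.13, and none was called in any interaction. Against WT, cpt-2 rose in TIR-1; dpy-27::AID; cec-4 (means of 113 FPKM, against 56.0 FPKM in WT, adjusted p = 0.00828), dhs-28 rose in dpy-21 (log2 fold change 0.73, adjusted p = 0.0414) and hacd-1 fell in dpy-21; cec-4 (-2.25, adjusted p = 0.0135), each 1 of 12. In the same order, 1.04% of all genes were called higher, 2.38% higher and 1.5% lower.

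Of 12 tested genes of lipid storage and transport, 3 gave calls. The synthase gene sams-1, which makes the methyl donor for phosphatidylcholine synthesis, rose on auxin in TIR-1; dpy-27::AID (log2 fold change 1.04, adjusted p = 0.0176) and in TIR-1; dpy-27::AID; cec-4 (0.91, adjusted p = 0.00610). In the second of these strains the lipid-binding protein gene lbp-6 fell (-0.75, adjusted p = 0.0479). The gene sams-1 was also higher in auxin-treated TIR-1; dpy-27::AID than in auxin-treated dpy-27::AID (1.18, adjusted p = 0.00189), the comparison in which the cytochrome b5 gene cytb-5.1 rose (0.95, adjusted p = 0.00779). With cec-4 added, both on auxin, cytb-5.1 (-1.07, adjusted p = 0.00174) and the fatty acid synthase gene fasn-1 (-0.96, adjusted p = 0.0352) were lower in TIR-1; dpy-27::AID; cec-4. The auxin response of fasn-1 was lower in TIR-1; dpy-27::AID; cec-4 than in TIR-1; dpy-27::AID by an interaction of -1.49 (adjusted p = 0.0267). Without auxin, sams-1 was higher in dpy-21; cec-4 than in cec-4 (0.92, adjusted p = 0.0150), and lbp-8 had 9.32, 22.8 and 19.9 FPKM in dpy-21; cec-4, against 0.246 FPKM in 1 WT library and a listed 0 in the other 2 (adjusted p = 0.0413). None of the desaturase genes passed in these comparisons. The shares of all genes called were 0.413% for auxin in TIR-1; dpy-27::AID and 6.4% for auxin in TIR-1; dpy-27::AID; cec-4. They were 1.31% for TIR-1; dpy-27::AID over dpy-27::AID on auxin, 2.28% with cec-4 added on auxin and 1.44% for the interaction. For dpy-21; cec-4 they were 1.56% over cec-4 and 4.3% over WT. Genes of the X as a whole were higher in the comparisons where sams-1 rose. Their median log2 fold change was 0.34 for auxin in TIR-1; dpy-27::AID and 0.67 for auxin in TIR-1; dpy-27::AID; cec-4. It was 0.46 for TIR-1; dpy-27::AID over dpy-27::AID on auxin and 0.61 for dpy-21; cec-4 over cec-4. The list genes were not set against genes of their own chromosome, so a lipid response and a chromosome-wide shift were not separated.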

How the data were processed

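The authors trimmed paired-end reads of poly(A) libraries with cutadapt 2.3, checked them with FastQC 0.11.8, quantified WBcel235 transcripts with Salmon 1.9.0 and used DESeq2 1.42.0. They deposited 1 table of FPKM values. How the FPKM were computed and scaled is not given in the sources used here. The table was read as log2(FPKM + 0.1). Genes with a mean of at least 1 FPKM over 33 libraries were fitted with limma 3.58.1 in R 4.3.3 (11 condition means, trend in the prior variance, no replicate block). This gave 16 comparisons, 4 interactions and an F test, with Benjamini-Hochberg adjustment within each. A count test such as the authors' cannot be run on FPKM, since whole reads were not recovered, and it was replaced. Correlations and gene coordinates used Python 3.11.15 and the Ensembl 115 annotation, and 19860 of 21975 IDs had a symbol. The procedure was tested on simulated data.

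Members, gene lists and tests were chosen with earlier results of these data known. All 7 members are named, other genes only where called, at most 4 of a list in a comparison by smallest adjusted p, and the 3 most alike genes of each member. Other settings tried were a pseudocount of 1 or 0.01, no filter, a mean of at least 5 FPKM, median-of-ratios scaling, equal FPKM sums, a replicate block, no trend, only the conditions compared, leaving out each library, and, chosen after seeing the data, WT replicate 3 alone and untreated TIR-1; dpy-27::AID; cec-4 replicate 3 alone. Samples were grouped by their titles.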

Additional observations from a re-analysis of the deposited data

How the results depend on the processing

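Over the alternatives no called difference changed direction. The number of members called in untreated TIR-1; dpy-27::AID; cec-4 against WT was 3 as reported, 1 with equal FPKM sums, 2 without a trend (fat-1 lost, adjusted p = 0.0535), 0 with only the conditions compared, 1 with WT replicate 3 alone and 0 with untreated TIR-1; dpy-27::AID; cec-4 replicate 3 alone. In dpy-21 against WT it was 2 as reported, 3 with a mean of at least 5 FPKM (fat-1 gained, adjusted p = 0.0498), 1 without a filter, 1 without a trend, and 0 with equal FPKM sums, with only the conditions compared and with WT replicate 3 alone. The F test passed for 2 members and, with equal FPKM sums, for 1, and with the replicate block for 3 (fat-5 gained, adjusted p = 0.0490). Of the correlations, 7 pairs passed as reported and 11 with equal FPKM sums, and within conditions 1 pair and 0 pairs. The causes were not tested, except that fits of only the conditions compared rest on 6 libraries.

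Leaving out 1 library at a time gave 1 to 4 members called in TIR-1; dpy-27::AID; cec-4 against WT, 0 to 3 in dpy-21 against WT, 2 to 3 in the F test, 0 to 1 in dpy-27::AID, TIR-1; dpy-27::AID, cec-4 and dpy-21; cec-4 against WT and in the interaction of cec-4 with dpy-21, and 0 in the rest. The 3 in dpy-21, without WT replicate 3, include fat-7 called higher (log2 fold change 3.51, adjusted p = 0.0446). That call rests on WT libraries listed at 0 and 2.10 FPKM. Log2 fold changes in TIR-1; dpy-27::AID; cec-4 over WT ran from -1.23 to -1.01 for fat-2, -0.90 to -0.56 for fat-1 and -0.73 to -0.67 for fat-3. In dpy-21 over WT they ran from -0.70 to -0.48 for fat-2 and -0.75 to -0.45 for fat-3.

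Replicate numbers did not pair the samples: in 0 of 16 comparisons did all 3 same-numbered pairs of libraries deviate together with a correlation over 0.1, and 13 of 33 libraries correlated best with their own number. With the number as a replicate block, 3 members stayed called in TIR-1; dpy-27::AID; cec-4 against WT and 2 in dpy-21 against WT, and it added fat-5 in the F test. The residual SD of fat-7, 1.66 on the log2 scale, gave an interval of -2.63 to 2.71 even for auxin over no auxin in TIR-1; dpy-27::AID; cec-4. In this fit, changes of fat-7 below that size could not be told from 0. That SD is shared by all conditions and includes the WT library listed at 0, which enters as log2(0.1). The libraries of this strain ran from 1.94 to 5.03 FPKM on auxin and from 1.81 to 6.23 FPKM without it.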
